A study of Mus musculus with 97 samples.

Results

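The 37 genes described here carry glucose into the cell and through glycolysis. They were listed by name for their place in the pathway, and all 37 were found among the 51368 genes of the deposited table. Slc2a1, Slc2a3, Slc2a4, Slc2a8 and Slc2a12 encode facilitative glucose transporters. Hexokinases, glucose phosphate isomerase, phosphofructokinases, bifunctional 6-phosphofructo-2-kinases, aldolases and triose phosphate isomerase (Tpi1) are counted here as upper glycolysis, and the enzymes from Gapdh to pyruvate kinase as lower glycolysis. The list also holds Ldha, Ldhb and the monocarboxylate transporters Slc16a1 and Slc16a3, which handle lactate, Pdha1 and Pdhb of the pyruvate dehydrogenase complex, the fructose bisphosphatases Fbp1 and Fbp2, and Gys1 and Pygm, which build and break glycogen. Aldoa has 2 rows in the table, of which the second (ENSMUSG00000114515) stayed below 1 CPM, and the text follows the first (ENSMUSG00000030695).

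Glucose enters most cells down its gradient, is trapped by phosphorylation, is split at the aldolase step, and leaves as pyruvate, which either enters mitochondria or is reduced to lactate. Nearly every step has several isozymes, one of which is typical of striated muscle: Slc2a4 (GLUT4, moved to the surface by insulin and contraction), Hk2, Pfkm, Aldoa, Pgam2, Eno3 and Pygm. The heart mainly burns fatty acids and keeps glycolysis in reserve. In the jejunum, enterocytes take sugar from the lumen with a sodium-coupled carrier and release it to the blood, so their glycolysis is not their main route for sugar.

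The mice were C57BL/6, aged 11 weeks at the end of a diet of 3 weeks with or without drug, when RNA was sequenced from 59 whole hearts and from 38 jejuna flushed with PBS. The drugs were 2 non-steroidal anti-inflammatory drugs: naproxen, which blocks both cyclooxygenases (1323 ppm in the chow of females and 1610 ppm in that of males), and celecoxib, which prefers cyclooxygenase 2 (550 ppm). Experiment 1 held hearts of 5 naproxen and 5 control females and of 5 naproxen and 5 control males, none of which were injected. Experiment 2 held hearts of 8 females given naproxen plus tryptophan, 7 given naproxen and 8 controls. In experiment 3 the hearts of 8 tryptophan females stood against those of 8 controls. Experiment 4 held jejuna of females, 7 on naproxen plus tryptophan, 7 on naproxen, 8 on tryptophan, 8 on celecoxib and 8 controls. Tryptophan was injected into the peritoneum daily at 50 mg/kg in the last week, and all other mice of experiments 2 to 4, controls included, were injected with PBS. No mouse carried a genetic change per the labels.

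Libraries held 26.3 to 76.36 estimated counts, in units of 1000000, in the hearts and 10.11 to 28.54 in the jejuna, of which the 37 genes took 0.58% to 1.67% and 0.34% to 0.66%. Marker genes were checked against the tissue labels. Summed levels of 7 cardiomyocyte markers were 21406 to 59864 CPM (counts per 1000000, after TMM scaling of library sizes) in hearts and at most 66.5 CPM in jejuna. Summed levels of 6 enterocyte markers were at most 1.51 CPM in hearts and 8814 to 37682 CPM in jejuna. The 3 hearts with the highest mitochondrial shares were replicate 8 of the naproxen males and replicates 3 and 4 of the control females in experiment 1, at 34.7% to 39.2% of counts, close to the next heart at 34.4%. In the jejunum, naproxen replicates 1 and 4 and naproxen plus tryptophan replicates 1 and 2 had low enterocyte marker shares (1.02% to 1.15% of counts). The text names the differences that were also computed without these hearts or jejuna. In whole tissue, fewer cells of a type and less RNA per cell cannot be told apart.

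In hearts of females given naproxen plus tryptophan, 3 of the 34 members tested were called, all higher than in control hearts: Eno3, Slc2a12 and Pgam2. Over all 16070 genes tested there, 0.28% were called (edgeR quasi-likelihood test, Benjamini-Hochberg adjusted p below 0.05) and 0.224% were called higher. Eno3 encodes the muscle enolase and Pgam2 the muscle phosphoglycerate mutase, which catalyse neighbouring steps of lower glycolysis. Slc2a12 encodes GLUT12, a glucose transporter that is found in muscle and responds to insulin. No member was called lower. Hkdc1, Fbp1 and Pklr were too low in the heart to be tested.

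Eno3 and Pgam2 lie on mouse chromosome 11 and Slc2a12 on chromosome 10. The 250 bases before their RefSeq starts are shown because these are the members that passed the test. Those of Pgam1 stand beside Pgam2 because the brain-type Pgam1 did not pass. These starts lay 28 (Eno3), 63 (Pgam2), 52 (Pgam1) and 0 (Slc2a12) bases from the GENCODE start of the longest coding transcript. The sequences are from RefSeq (GRCm38.p6), on the strand of each gene: Eno3 at chr11:70656926-70657175 (plus strand), Pgam2 at chr11:5803797-5804046 (minus strand), Slc2a12 at chr10:22644761-22645010 (plus strand) and Pgam1 at chr19:41911621-41911870 (plus strand). Capitals mark matches on either strand to the 6 motifs searched: the E-box CANNTG, the hypoxia core ACGTG, the muscle MCAT motif CATTCC, the GC box GGGCGG, the TATA box TATAAA and the MEF2 motif.
Eno3: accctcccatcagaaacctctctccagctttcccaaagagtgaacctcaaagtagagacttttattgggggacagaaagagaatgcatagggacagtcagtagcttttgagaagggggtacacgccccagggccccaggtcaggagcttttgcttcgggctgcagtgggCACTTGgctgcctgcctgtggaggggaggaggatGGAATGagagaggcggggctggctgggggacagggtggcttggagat
Pgam2: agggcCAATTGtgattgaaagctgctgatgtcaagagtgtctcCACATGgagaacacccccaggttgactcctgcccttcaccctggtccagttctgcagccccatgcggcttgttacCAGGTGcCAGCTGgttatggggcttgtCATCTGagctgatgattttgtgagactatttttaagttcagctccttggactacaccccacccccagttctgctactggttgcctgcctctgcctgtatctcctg
Slc2a12: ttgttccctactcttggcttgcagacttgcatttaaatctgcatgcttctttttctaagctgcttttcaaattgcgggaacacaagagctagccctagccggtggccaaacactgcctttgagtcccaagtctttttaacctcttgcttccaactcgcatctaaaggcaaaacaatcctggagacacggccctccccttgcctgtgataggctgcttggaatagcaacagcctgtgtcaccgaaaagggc
Pgam1: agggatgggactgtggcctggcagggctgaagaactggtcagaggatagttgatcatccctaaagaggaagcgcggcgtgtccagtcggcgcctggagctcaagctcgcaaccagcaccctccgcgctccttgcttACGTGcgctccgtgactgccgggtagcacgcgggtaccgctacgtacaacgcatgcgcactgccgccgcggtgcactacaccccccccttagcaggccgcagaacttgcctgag
The Eno3 window held 1 E-box and 1 MCAT motif, and the Pgam2 window 5 E-boxes, of which 2 stand 1 base apart. The Pgam1 window held 1 hypoxia core, and the Slc2a12 window none of the 6 motifs. E-boxes occur in 66.2% of the 32817 promoter windows of this length, hypoxia cores in 16.6%, GC boxes in 32.7%, MCAT motifs in 12.6%, TATA boxes in 12.4% and the MEF2 motif in 0.509%. An E-box and a hypoxia core overlap where the letters read CACGTG. These matches describe the letters only, and no binding was measured.

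Eno3 (ENSMUSG00000060600, chr11:70657202-70662513, GRCm38) was the most abundant of the 3 called members. Its level ran from 1227 CPM over a median of 1265 to 1539 CPM in the 8 naproxen plus tryptophan hearts, against 856 to 1084 CPM (median 959) in the 8 control hearts. Each of the 8 hearts with the combination lay above the highest control. The means were 1343 ± 125 CPM (SD, n = 8) with the combination, 1042 ± 114 CPM (n = 7) with naproxen alone and 969 ± 75.7 CPM (n = 8) in controls. The fitted difference from control was log2 0.47 (SE 0.07, adjusted p = 0.00615), a ratio of means of 1.39. Eno3 was called in each of the 23 refits that left out 1 of the experiment's libraries.

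Pgam2 (ENSMUSG00000020475, chr11:5801640-5803733) showed the same separation of groups at a lower level. It stood at 306 to 406 CPM (median 360) with the combination and at 264 to 299.7 CPM (median 284) in controls. Again all 8 hearts with the combination lay above the highest control. Pgam2 averaged 360 ± 33.4 CPM with the combination, 292 ± 36.2 CPM with naproxen alone and 283 ± 12.6 CPM in controls. The log2 difference was 0.35 (SE 0.07, adjusted p = 0.0411). This call rests on a narrow margin: it was kept in 8 of the 23 refits with 1 library left out, where adjusted p ran from 0.0202 to 0.105. It was kept without control replicate 7, without naproxen replicate 1, 2, 4, 6 or 7, and without combination replicate 4 or 8, and was lost without any other single library.

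Slc2a12 (ENSMUSG00000037490, chr10:22645011-22704285) was a rare transcript. It was read at 6.10 to 8.57 CPM (median 7.91) with the combination, 5.78 to 7.74 CPM (median 6.30) with naproxen alone and 5.06 to 6.19 CPM (median 5.55) in controls. Of the 8 hearts with the combination, 7 lay above the highest control. The difference between combination and control was log2 0.46 (SE 0.08, adjusted p = 0.00851), and it was called in all 23 refits with 1 library left out.

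**Figure D1:**
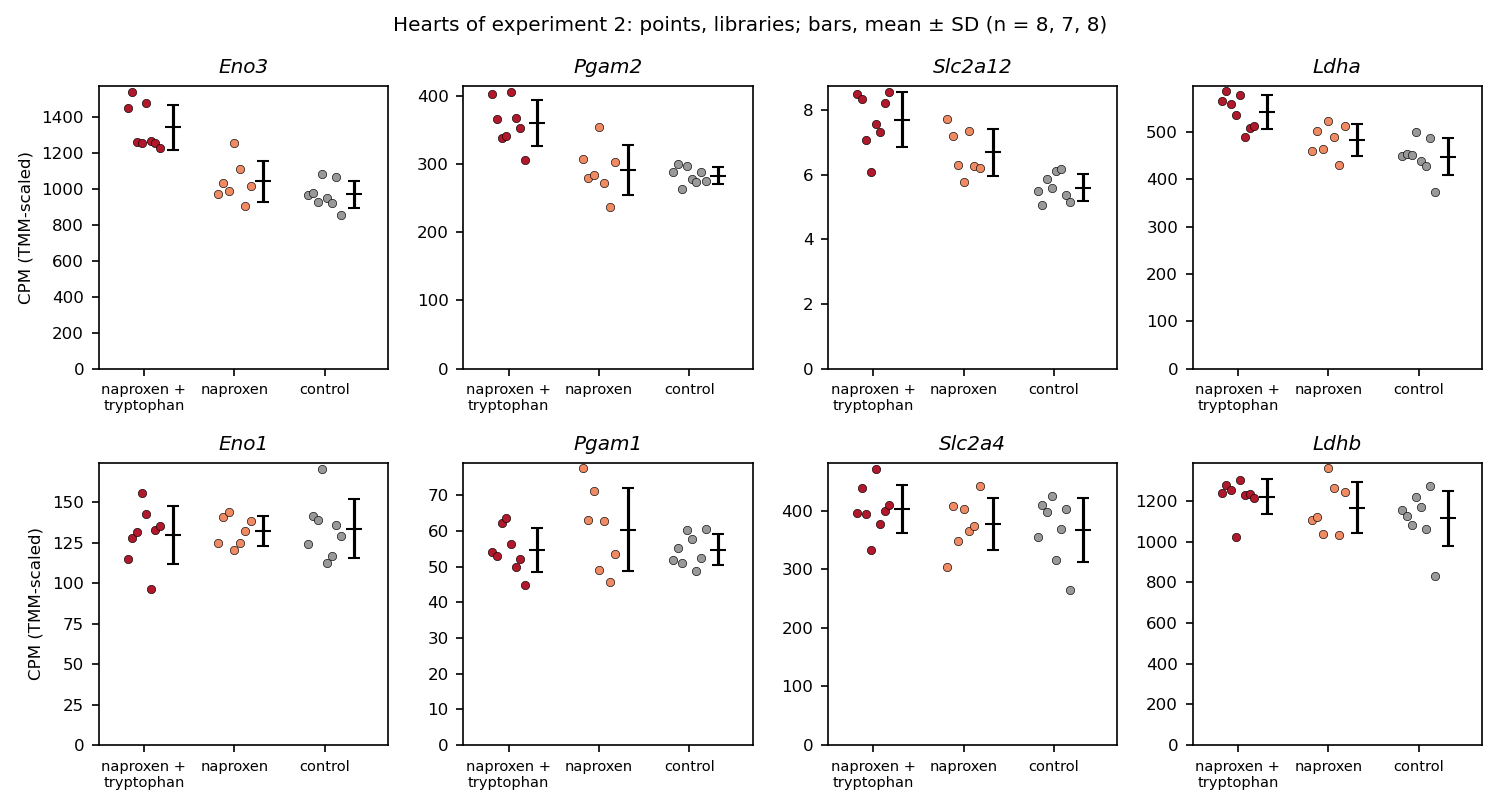
Level in CPM (vertical axis, from 0) of 8 members in each heart of experiment 2, with points for single animals and bars for the mean and SD, for naproxen plus tryptophan (8), naproxen (7) and control (8). For Eno3 and Pgam2 all 8 hearts with the combination lie above the highest control, while Eno1 and Pgam1 averaged 129.8 and 54.5 CPM with the combination and 133.8 and 54.7 CPM in controls.

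The next 2 members by p are given although they missed the threshold, a choice made after their values were seen. Ldha, the lactate dehydrogenase subunit that favours lactate, was at 542 ± 35.7 CPM with the combination and 448 ± 38.8 CPM in controls (log2 0.28, SE 0.06, adjusted p = 0.0531). Pgk1, the first enzyme of glycolysis to make ATP, was at 302 ± 16.4 and 258 ± 17.1 CPM in the same groups (log2 0.23, SE 0.06, adjusted p = 0.069). For Pgk1 all 8 hearts with the combination lay above the highest control, and for Ldha 7 of 8. Eno3, Pgam2 and Pgk1 were thus the 3 members of 34 whose groups did not overlap with the combination higher, a separation shown by 0.268% of all genes tested. DESeq2 called 5 members, among them Ldha (adjusted p = 0.00122) and Pgk1 (adjusted p = 0.00408).

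The other isozymes of the same steps had smaller differences, none called. Eno1, the enolase of most tissues, was at 129.8 ± 17.8 CPM with the combination and 133.8 ± 18.2 CPM in controls (log2 -0.04, adjusted p = 0.827). Pgam1 was at 54.5 ± 6.14 and 54.7 ± 4.38 CPM (log2 0.00, adjusted p = 0.985). A ratio of 2 isozymes within a library does not depend on how libraries are scaled. The log2 ratio of Eno3 to Eno1 was 3.38 ± 0.25 with the combination and 2.86 ± 0.15 in controls, with 7 of 8 hearts above the highest control. The log2 ratio of Pgam2 to Pgam1 was 2.73 ± 0.19 and 2.38 ± 0.11 in the same groups, with 6 of 8 above the highest control. These ratios are descriptions with no test. The ratio of Slc2a4 to Slc2a1 differed by 0.20, that of Hk2 to Hk1 by 0.15, that of Ldhb to Ldha by -0.14 and that of Pfkm to Pfkl by 0.00 (combination minus control, log2).

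By role, the combination against control gave 1 call among the 5 transporters and 2 among the 8 tested members of lower glycolysis. There were 0 calls among 12 members of upper glycolysis, 4 of lactate handling, 2 of pyruvate dehydrogenase, 1 fructose bisphosphatase and 2 of glycogen. The median log2 difference of the 34 members was 0.05 and that of all genes was 0.00, with 23 members above 0. At an unadjusted p below 0.05 stood 8 members, against 17.2% of all genes. Slc2a4, the main transporter of the heart, was at 402 ± 41 CPM with the combination and 367 ± 54.2 CPM in controls (log2 0.13, adjusted p = 0.471). Hk2, which phosphorylates glucose in muscle, was at 311 ± 45.2 and 309 ± 55.5 CPM (log2 0.01). Pfkm, the muscle phosphofructokinase, was at 931 ± 128 and 900 ± 144 CPM (log2 0.05). Gapdh was at 2270 ± 196 and 1984 ± 249 CPM (log2 0.19, adjusted p = 0.263), and Pfkfb3, the bifunctional enzyme with the strongest kinase activity, at 18.2 ± 7.7 and 23.8 ± 5.12 CPM (log2 -0.39, adjusted p = 0.336).

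Cell type markers in these hearts were measured beside the 3 called genes. The summed level of 7 cardiomyocyte markers was 40641 to 54559 CPM (median 50484) with the combination and 37862 to 54883 CPM (median 50247) in controls. Eno3 and Pgam2 are also muscle genes of limb muscle, and the summed level of 9 skeletal muscle markers was 3.01 to 9.07 CPM (median 4.42) with the combination and 3.66 to 7.03 CPM (median 4.63) in controls. Neutrophil markers summed to 0.319 to 76.1 CPM (median 4.69) and 0.770 to 8.98 CPM (median 1.59), and erythroid markers to 1843 to 14869 CPM and 1652 to 9243 CPM. No marker of any list was called. The part of blood cells in the result was not tested.

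Whether tryptophan added to naproxen was compared directly in the same experiment. Set against naproxen alone, the combination had 0 of 34 members called, where 0.0933% of all genes were called. Eno3 had the lowest p (log2 0.37, SE 0.08, adjusted p = 0.0616), followed by Pgam2 (log2 0.31, adjusted p = 0.118) and the neuronal-type transporter Slc2a3 (log2 -0.45, adjusted p = 0.425). DESeq2 called Eno3 (adjusted p = 0.000459) and Pgam2 (adjusted p = 0.00818) here. In the edgeR test Eno3 was called when control replicate 7 or 8, naproxen replicate 4 or combination replicate 4 was left out (lowest adjusted p = 0.0121), and Pgam2 was called without naproxen replicate 4 (adjusted p = 0.0185). At an unadjusted p below 0.05 stood 6 members and 9.95% of genes.

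Naproxen alone against control in experiment 2 gave 0 of 34 members called, and 0.0% of all genes were called. At an unadjusted p below 0.05 stood 2 members and 3.55% of all genes, and DESeq2 called 0 members. The lowest p values belonged to Slc2a12 (log2 0.26, SE 0.08), Pgk1 (log2 0.15, SE 0.06) and Slc16a3 (log2 0.37, SE 0.19), each with an adjusted p of 1.00. Eno3 differed by log2 0.10 and Pgam2 by 0.04. These comparisons share their control hearts, so their values are set side by side only.

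Tryptophan alone was compared with control in experiment 3, where 0 of 34 members were called, as were 0.0% of all genes. Eno3 was at 1010 ± 134 CPM in the 8 tryptophan hearts and 1036 ± 132 CPM in the 8 controls (log2 -0.04). Pgam2 was at 312.4 ± 23.3 and 314.9 ± 14.3 CPM (log2 -0.01), and Slc2a12 at 6.03 ± 1.1 and 5.97 ± 0.95 CPM (log2 0.02). The members with the lowest p were Pfkfb1 (10.9 ± 1.68 CPM with tryptophan and 12.6 ± 1.76 CPM in controls, log2 -0.21, SE 0.09), Pdha1 (log2 -0.08) and Slc2a4 (log2 -0.07), each with an adjusted p of 1.00. At an unadjusted p below 0.05 stood 1 member and 2.88% of genes, and DESeq2 called 0 members. The log2 ratio of Eno3 to Eno1 differed by 0.02 between tryptophan and control hearts, and that of Pgam2 to Pgam1 by -0.01. Experiments 2 and 3 were separate cohorts, and the difference between their effects was not tested.

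Naproxen alone was also given in experiment 1, and no member passed the test in either sex. In females 0 of 33 members were called and 0.0132% of all genes, and in males 0 of 33 and 0.0%. At an unadjusted p below 0.05 stood 3 members in females and 7.14% of genes, and in males 5 members and 7.68% of genes. DESeq2 called 0 members in females and 1 in males. Pfkfb2, the heart isoform of the bifunctional enzyme that sets the phosphofructokinase activator fructose 2,6-bisphosphate, had the lowest p in both sexes.

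Pfkfb2 (ENSMUSG00000026409, chr1:130689182-130729253) was read in females at 98.7, 115.0, 105.6, 108.0 and 136.2 CPM with naproxen, against 80.0, 80.2, 95.4, 80.2 and 99.5 CPM in controls. In males it was read at 145.2, 103.7, 138.8, 87.2 and 146.6 CPM with naproxen, against 84.6, 93.2, 89.5, 81.6 and 67.1 CPM in controls. In both sexes 4 of 5 naproxen hearts lay above the highest control. The difference was log2 0.37 (SE 0.13, adjusted p = 0.619) in females and 0.58 (SE 0.13, adjusted p = 0.348) in males, where DESeq2 gave an adjusted p of 0.0234. In experiment 2 the groups overlapped, at 60.9 to 127.9 CPM (median 103.6) with naproxen and 77.7 to 114.8 CPM (median 87.0) in controls. Pooled over the 3 strata, with 17 naproxen and 18 control hearts, the difference was log2 0.34 (SE 0.08, adjusted p = 0.116). DESeq2 called it there (adjusted p = 0.039), and edgeR did without experiment 2 (log2 0.49, adjusted p = 0.0285).

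**Figure D2:**
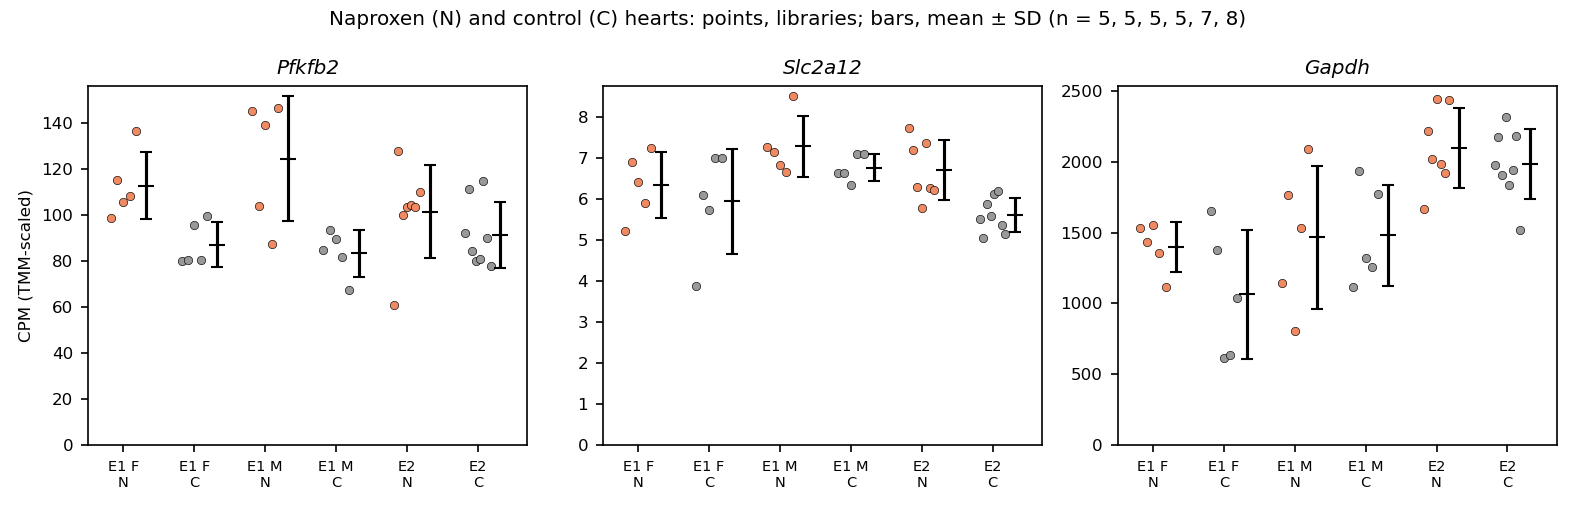
Level in CPM (vertical axis, from 0) of Pfkfb2, Slc2a12 and Gapdh in naproxen and control hearts of the females and males of experiment 1 and of experiment 2, with points for single animals and bars for the mean and SD. Pfkfb2 lies above the highest control in 4 of 5 naproxen hearts of each sex in experiment 1 and overlaps in experiment 2.

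The pooled naproxen comparison called 0 of 34 members, against 0.0717% of all genes. After Pfkfb2 the lowest p values were those of Slc2a12 (log2 0.17, adjusted p = 0.418) and the brain aldolase Aldoc (log2 -0.65, adjusted p = 0.466), which is below 1 CPM in these hearts. At an unadjusted p below 0.05 stood 5 members and 7.06% of genes. Of the 34 members 29 lay above 0, with a median log2 difference of 0.07. The share of all genes above 0 was not computed, so this count says nothing particular about the members. In females the next members were Slc16a3, a lactate exporter (log2 1.21, adjusted p = 0.654), and Slc2a3 (log2 0.72, adjusted p = 0.687). Naproxen replicate 3 held the highest value of both, at 2.07 CPM for Slc16a3 and 10.4 CPM for Slc2a3. Without it the differences were log2 0.72 for Slc16a3 and 0.14 for Slc2a3, and without control replicate 1 that of Slc16a3 was 1.85. In males they were the neuronal enolase Eno2 (log2 -0.73) and Fbp2 (log2 -0.42, adjusted p = 0.593 each), the muscle fructose bisphosphatase. Gys1, the glycogen synthase of muscle, was the member whose female groups did not overlap, at 74.3 to 84.4 CPM with naproxen and 57.8 to 73.7 CPM in controls. This separation with naproxen higher was shown by 0.383% of all genes. Gys1 is named for it alone: it was not called, nor was it among the 3 members at an unadjusted p below 0.05 (edgeR).

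Control females of experiment 1 varied widely in abundant glycolytic transcripts. Gapdh was read at 1531, 1433, 1558, 1358 and 1119 CPM in naproxen females, against 1657, 1379, 612, 637 and 1041 CPM in control females, where the coefficient of variation was 43.0%. The low values are those of control replicates 3 and 4, 2 of the 3 hearts with the highest mitochondrial shares. Aldoa was at 553 and 551 CPM and Pkm at 247 and 245 CPM in these 2 hearts, against 787 to 1209 CPM and 335 to 580 CPM in the other 3 controls. Cardiomyocyte marker sums were 26043 to 32364 CPM in naproxen females and 21406 to 34374 CPM in control females. Without the 3 hearts of highest mitochondrial share, Pfkfb2 differed by log2 0.39 in females and 0.56 in males, and by 0.31 in the pooled comparison (adjusted p = 0.392). No member was called without them, and Slc16a3 in females then differed by log2 0.87.

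Whether the naproxen effect differed between males and females was tested as an interaction, in which sex and dose cannot be told apart. Of 33 members 0 were called, as were 0.0% of all genes, with 1 member and 5.05% of genes at an unadjusted p below 0.05, and DESeq2 called 0 members. The lowest p values were those of Fbp2 (log2 -0.74), Pdha1 (log2 0.27) and Slc16a3 (log2 -1.19), each with an adjusted p of 0.759. Fbp2 was read at 11.4 to 19.8 CPM in naproxen males and 18.2 to 27.2 CPM in control males, and at 17.5 to 30.0 CPM in naproxen females and 13.9 to 22.9 CPM in control females. Without the 3 hearts of highest mitochondrial share the Fbp2 difference was -0.58, that of Pdha1 0.13 and that of Slc16a3 -0.75.

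**Figure D3:**
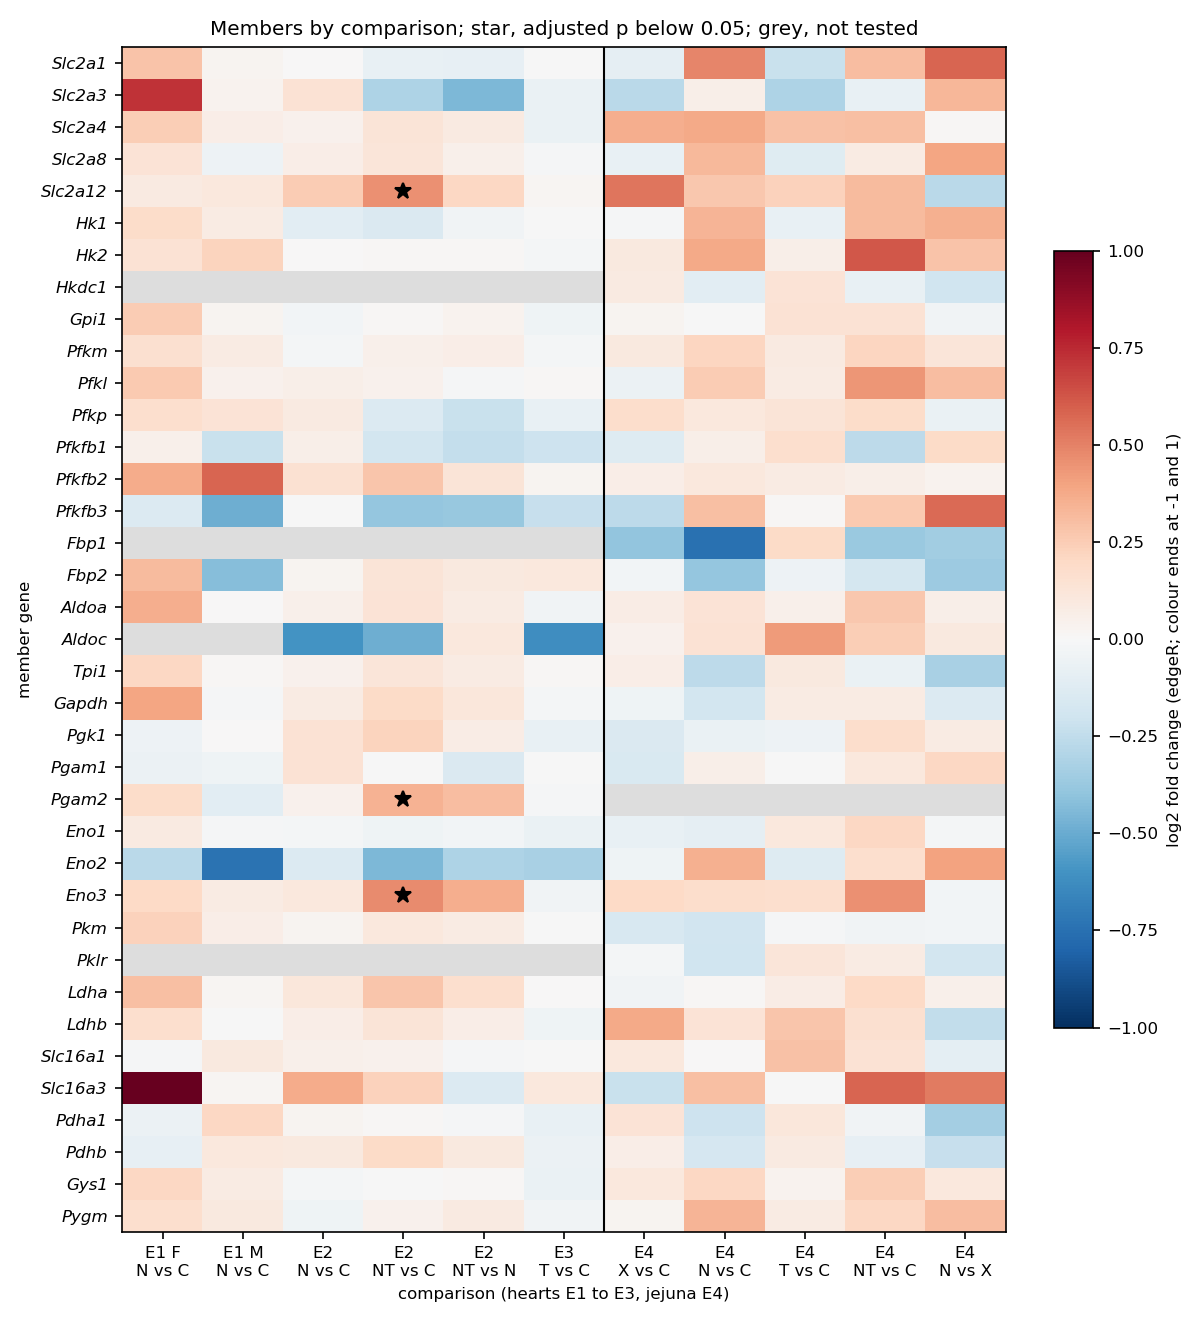
Log2 fold change (colour, ends at -1 and 1) of the 37 genes (rows, grouped by role) in 11 treatment comparisons (columns), with a star at an adjusted p below 0.05 and grey for genes not tested. The 3 stars, at Eno3, Pgam2 and Slc2a12, stand in the column of naproxen plus tryptophan against control in hearts of experiment 2.

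In the jejunum, 36 of the 37 genes could be tested, all but Pgam2. No member was called in any of the 7 comparisons: celecoxib, naproxen, tryptophan and the combination each against control, the combination against naproxen, naproxen against celecoxib, and the interaction of naproxen with tryptophan. Each comparison called 0.0% of all 17714 genes. DESeq2 called 1 member for naproxen against celecoxib and 0 in the other 6 comparisons. The numbers of the 36 genes at an unadjusted p below 0.05 were 0 for celecoxib (4.36% of all genes), 5 for naproxen (15.8%), 0 for tryptophan (2.69%) and 4 for the combination (5.98%). They were 0 for the combination against naproxen (3.71%), 6 for naproxen against celecoxib (18.4%) and 0 for the interaction (3.49%).

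Hk2 had the lowest p in the combination against control. It was read at 27.7 to 91.7 CPM (median 43.9) in the 7 jejuna with the combination, at 28.0 to 67.8 CPM (median 36.3) with naproxen and at 23.9 to 36.7 CPM (median 30.9) in the 8 controls. The groups overlapped. The difference was log2 0.62 (SE 0.17, adjusted p = 0.395) for the combination and 0.38 (SE 0.17, adjusted p = 0.277) for naproxen. Without the jejuna of low enterocyte marker share it was 0.36 for the combination and 0.19 for naproxen. Eno3, at 11.9 ± 3.72 CPM with the combination and 8.64 ± 1.28 CPM in controls, differed by log2 0.46 (adjusted p = 0.724), and Pfkl, the liver-type phosphofructokinase, by 0.44 (adjusted p = 0.733). Without the same jejuna Eno3 differed by log2 0.65 and Pfkl by 0.44. Enterocyte markers summed to 8814 to 30119 CPM (median 24058) with the combination, 9152 to 25072 CPM (median 23028) with naproxen and 12403 to 34903 CPM (median 25779) in controls.

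Slc2a1, the transporter of basal glucose uptake, had the lowest p for naproxen against control. It was at 17.9 ± 5.12 CPM with naproxen and 12.8 ± 3.2 CPM in controls (log2 0.49, SE 0.20, adjusted p = 0.253), and the difference was 0.25 without the jejuna of low enterocyte marker share. Fbp2 was at 189 ± 49.8 CPM with naproxen and 252 ± 64.2 CPM in controls (log2 -0.39, SE 0.17, adjusted p = 0.272), and at -0.19 without those jejuna. Leaving these jejuna out thus moved the naproxen differences of Slc2a1, Hk2 and Fbp2 by more than 1.5 times, and the part of cell makeup in them was not tested.

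The 2 drugs were compared at the doses given, 1323 ppm naproxen and 550 ppm celecoxib, which differ. Pdha1, the catalytic subunit of pyruvate dehydrogenase, was at 117 to 184.5 CPM (median 140) with naproxen and 132 to 216 CPM (median 186) with celecoxib. The difference was log2 -0.34 (SE 0.10, adjusted p = 0.121), and DESeq2 called it (adjusted p = 0.0466). Slc2a1 was at 10.7 to 24.8 CPM (median 18.3) with naproxen and 7.35 to 20.1 CPM (median 11.2) with celecoxib (log2 0.58, SE 0.20, adjusted p = 0.154). Pfkfb3 differed by log2 0.56 (SE 0.23, adjusted p = 0.207). Without naproxen replicate 6, edgeR called Pdha1 (adjusted p = 0.0425) and Slc2a1 (adjusted p = 0.0467). Without the jejuna of low enterocyte marker share, Pdha1 differed by -0.25, Slc2a1 by 0.36 and Pfkfb3 by 0.46, none called.

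Celecoxib against control had its lowest p values at Slc2a12 (log2 0.54, SE 0.37), Pdha1 (log2 0.14) and the platelet-type phosphofructokinase Pfkp (log2 0.17), each with an adjusted p of 0.961. Tryptophan against control had them at Slc16a1 (log2 0.29), Slc2a3 (log2 -0.31) and Aldoc (log2 0.43), each with an adjusted p of 0.999. For the combination against naproxen they belonged to Eno3 (log2 0.28), Pdha1 (log2 0.17) and Gapdh (log2 0.26), each with an adjusted p of 0.996. For the interaction they belonged to Pfkfb1 (log2 -0.49), Pgk1 (log2 0.30) and Fbp2 (log2 0.26), each with an adjusted p of 1.00. Without the jejuna of low enterocyte marker share the interaction value of Pfkfb1 was log2 -0.31. Median coefficients of variation over members with a group mean of at least 1 CPM were 31.1% with the combination, 31.3% with naproxen and 22.0% in controls.

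**Figure D4:**
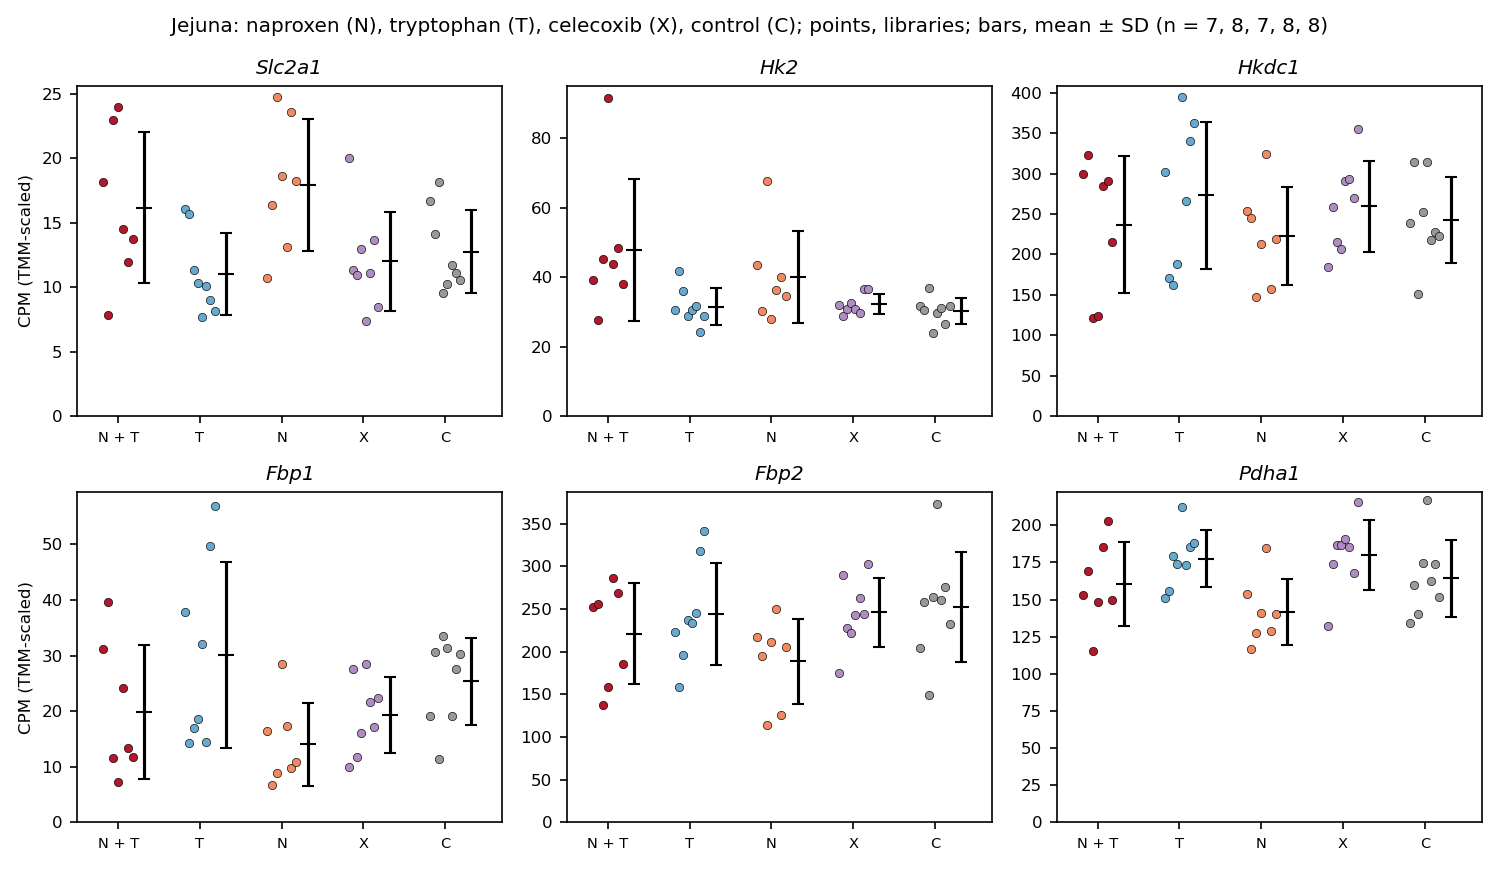
Level in CPM (vertical axis, from 0) of Slc2a1, Hk2, Hkdc1, Fbp1, Fbp2 and Pdha1 in each jejunum, with points for single animals and bars for the mean and SD, for naproxen plus tryptophan (7), naproxen (7), tryptophan (8), celecoxib (8) and control (8). All groups overlap, and single jejuna of the combination (91.7 CPM) and of naproxen (67.8 CPM) stand above the rest for Hk2.

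Control hearts and control jejuna were set against each other to show which isozyme of each step a tissue carries. Of the 37 genes, 24 were higher and 11 lower in the 21 female control hearts than in the 8 control jejuna, while 83.6% of all genes were called (41.1% higher, 42.5% lower), so the count itself says little about the members. Tissue, library kit (poly-A selection in heart, ribosomal RNA depletion in jejunum), RNA quality and cohort cannot be told apart here. Levels in this comparison are CPM scaled over these 29 libraries together. The SDs over the 21 hearts also hold differences between experiments. Scaling to total counts moved the median log2 difference of all genes to -0.57, against -0.01 with TMM, so that 5014 genes were higher and 9938 lower, against 7387 and 7623 with TMM. The members' median was 1.45 with TMM and 0.91 with total counts, under which 21 members were higher and 14 lower. With the hearts of experiment 2 alone 23 were higher and 11 lower, and with those of experiment 3 alone 24 and 10. The hearts of experiment 1 alone were also compared, and their counts are not reported here. The libraries of 26 members did not overlap between tissues, 18 higher and 8 lower in heart, against 49.0% of all genes.

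**Figure D5:**
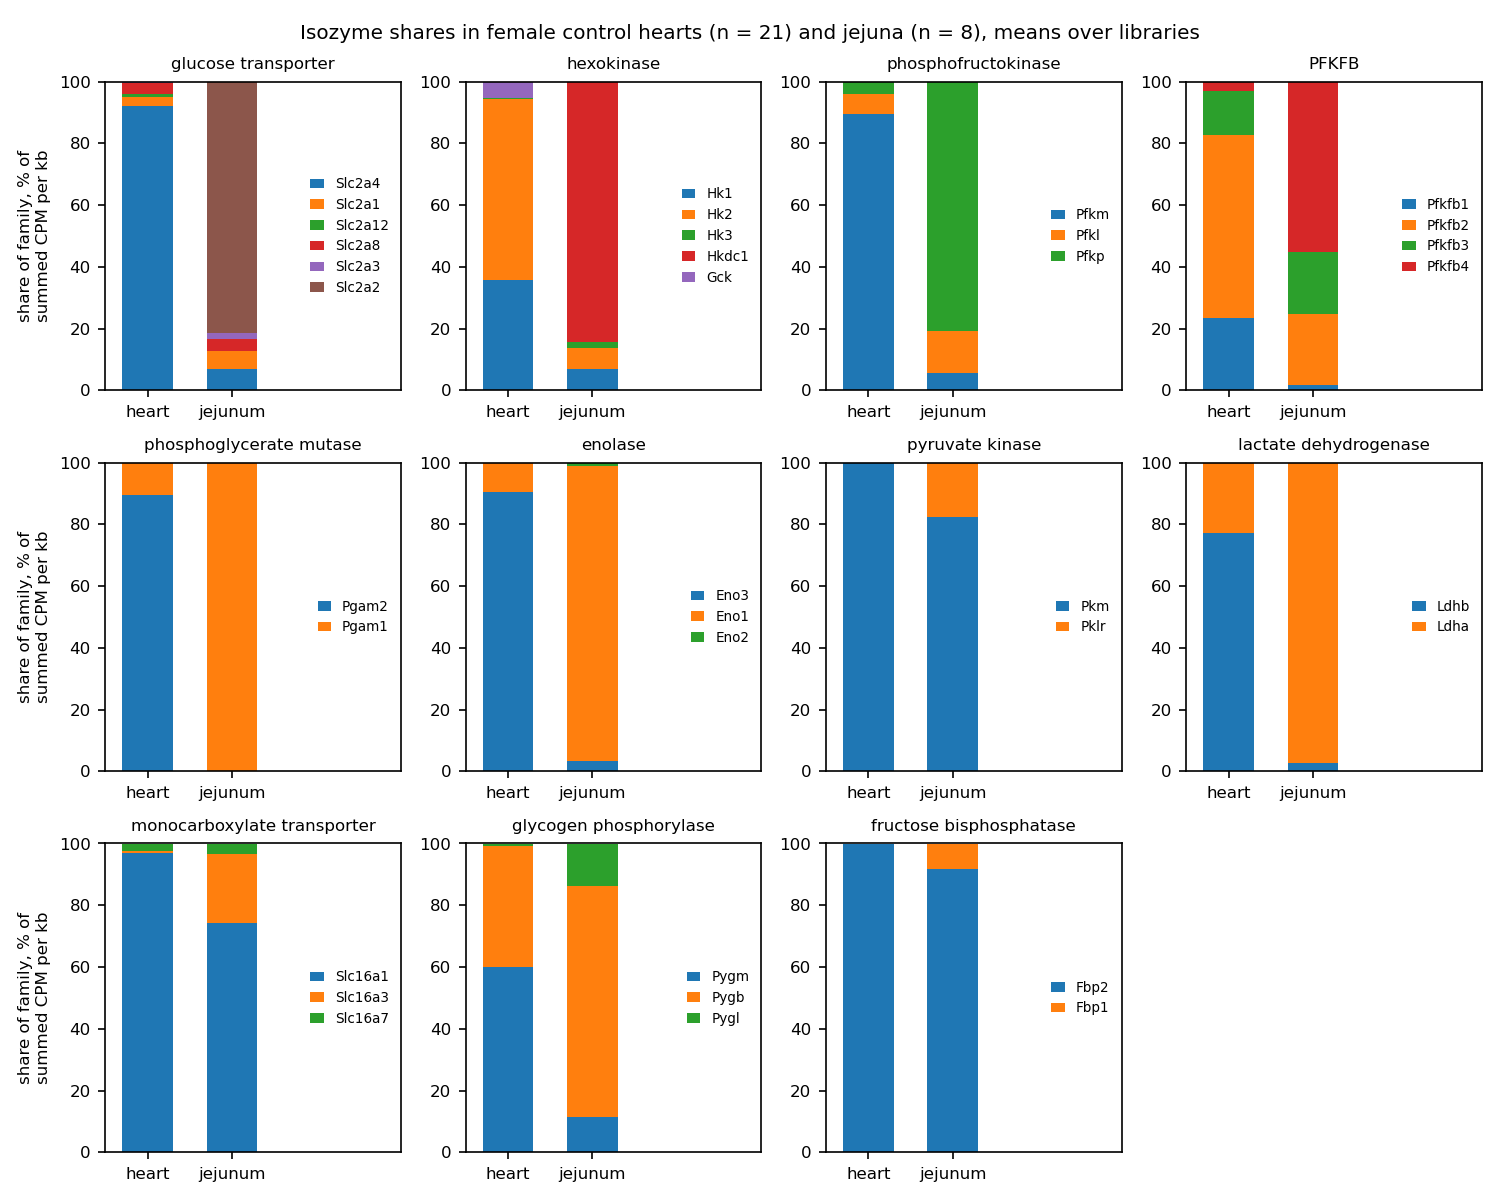
Share of each isozyme in its family's summed CPM per kilobase of transcript (vertical axis, percent), as stacked bars of the mean over 21 control hearts (left bar) and 8 control jejuna (right bar), for 11 families. Slc2a4, Hk2, Pfkm, Pgam2, Eno3 and Ldhb take the largest part in the heart, and Slc2a2, Hkdc1, Pfkp, Pgam1, Eno1 and Ldha in the jejunum.

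At the first step, Slc2a4 was at 361 ± 92.2 CPM in hearts and 9.32 ± 2.93 CPM in jejuna (log2 5.27, SE 0.24, edgeR adjusted p = 1.95e-19). It took 92.2% ± 0.76 of the summed transcript level of 6 facilitative transporters (Slc2a1, Slc2a2, Slc2a3, Slc2a4, Slc2a8 and Slc2a12; CPM per kilobase, SD over libraries) in hearts and 7.09% ± 4.66 in jejuna. That set leaves out the sodium-coupled carrier Slc5a1, which was at 0.591 ± 0.184 CPM in hearts and 1518 ± 485 CPM in jejuna. In jejuna Slc2a2 (GLUT2, the basolateral exit route of enterocytes), which is no member, took 81.3% ± 10.7 of the set. The set also leaves out other sugar carriers such as Slc2a5. Per kilobase, jejuna held Slc2a5 at 21.4 ± 7.15 CPM and Slc2a2 at 49.8 ± 17.8 CPM. Slc2a12 was at 6.49 ± 1.01 CPM in hearts and 0.606 ± 0.235 CPM in jejuna (log2 3.43). Slc2a8, an intracellular transporter, was higher in hearts (log2 1.45), and Slc2a3 was lower (log2 -0.51). Slc2a1 was at 14.1 ± 4.66 and 9.44 ± 2.21 CPM (log2 0.58, adjusted p = 0.0163), but it was not called under total counts (log2 0.03), and its sign turned when the hearts of experiment 1 alone were used (log2 -0.30).

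Hexokinases split by tissue as well. Hk2 was at 319 ± 53 CPM in hearts and 22.4 ± 2.54 CPM in jejuna (log2 3.83), and Hk1 at 153 ± 38.6 and 16.5 ± 4.88 CPM (log2 3.22). They took 58.7% ± 4.74 and 35.7% ± 3.97 of the hexokinase level per kilobase in hearts. Hkdc1, a hexokinase domain protein of gut and liver, was listed at 0 in 16 of 21 hearts, with 4 counts at most, and stood at 181 ± 43.8 CPM in jejuna. There it took 84.0% ± 6.21 of the hexokinase level.

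Phosphofructokinase was almost all Pfkm in hearts, at 896 ± 210 CPM against 8.06 ± 1.24 CPM in jejuna (log2 6.79), or 89.6% ± 1.25 of the family's level per kilobase. In jejuna Pfkp took 80.9% ± 2.46, at 55.9 ± 6.46 CPM in hearts and 176 ± 30.1 CPM in jejuna (log2 -1.66). Pfkl was called higher in hearts (log2 1.69). Of the bifunctional enzymes, Pfkfb1 (log2 3.81) and Pfkfb2 (log2 1.54) were higher in hearts, where Pfkfb2 took 59.4% ± 6.67 of the family. In jejuna Pfkfb4, which is no member, had the highest level per kilobase of the family. It was at 18.9 ± 3.90 CPM per kilobase there, with Pfkfb2 at 7.76 ± 1.45, and at 1.16 ± 0.301 in hearts. Pfkfb3 was not called (log2 -0.34, adjusted p = 0.0797). Aldoa was at 1683 ± 490 CPM in hearts and 165 ± 15.4 CPM in jejuna (log2 3.35). Aldoc was lower in hearts (log2 -3.10), and Gpi1 higher (log2 1.36).

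Tpi1, the last enzyme counted as upper glycolysis, was at 445 ± 101 CPM in hearts and 276 ± 74.9 CPM in jejuna (log2 0.69). In lower glycolysis, Gapdh was at 2045 ± 558 and 294 ± 56.7 CPM (log2 2.80), and Pgk1 at 310 ± 34.3 and 258 ± 61.5 CPM (log2 0.27). Under total-count scaling Tpi1 was no longer called and Pgk1 turned to log2 -0.26. Pgam2 was at 283 ± 86.9 CPM in hearts and was listed at 0 in 6 of 8 jejuna, with 2 counts at most in the others. Eno3 was at 960 ± 279 CPM in hearts and 6.43 ± 1.08 CPM in jejuna (log2 7.22), and took 90.4% ± 1.83 of the enolase level per kilobase in hearts. Eno1 took 95.4% ± 0.97 in jejuna, at 129 ± 43.3 CPM in hearts and 241 ± 58.2 CPM in jejuna (log2 -0.90). Pgam1 (log2 -0.39) and Eno2 (log2 -0.70) were also called lower in hearts. Pgam2 and Eno3, both called higher by naproxen plus tryptophan in the heart, thus held 89.4% and 90.4% of their family in control hearts. There Pgam1 and Eno1 held 10.6% and 9.50%, and Slc2a12 held 1.13% of the level of the 6 facilitative transporters. Among control females, the log2 ratio of Pgam2 to Pgam1 was 1.24 ± 0.70 in experiment 1. It was 2.38 ± 0.11 in experiment 2 and 2.36 ± 0.20 in experiment 3. The ratio of Eno3 to Eno1 was 2.79 ± 0.28, 2.86 ± 0.15 and 3.00 ± 0.38 in the same order. Pkm was higher in hearts (log2 1.23), and Pklr, the liver pyruvate kinase, was listed at 0 in 18 of 21 hearts, with 2 counts at most, and stood at 89.2 ± 24.1 CPM in jejuna. Pkm was still the larger part there, at 347 ± 70.5 CPM. Per kilobase, jejuna held Pkm at 142 ± 29.0 CPM and Pklr at 30.7 ± 8.31 CPM.

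Of the lactate genes, 2 were higher, 1 lower and 1 not called. Ldha was at 458 ± 86.2 CPM in hearts and 441 ± 100 CPM in jejuna and was not called (log2 0.06, adjusted p = 0.687). Ldhb, the subunit that favours pyruvate, was at 1120 ± 220 and 8.48 ± 1.84 CPM (log2 7.04). Ldhb took 77.2% ± 1.24 of the lactate dehydrogenase level per kilobase in hearts, and Ldha 97.2% ± 1.18 in jejuna. Slc16a1, which carries lactate both ways, was at 220 ± 46.8 CPM in hearts and 59.1 ± 13.5 CPM in jejuna and was called higher. Slc16a3 was lower, at 1.18 ± 0.506 CPM against 17.5 ± 4.39 CPM in jejuna (log2 -3.86).

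Beyond pyruvate, Pdha1 was at 1166 ± 173 CPM in hearts and 122 ± 21.6 CPM in jejuna (log2 3.25) and Pdhb at 513 ± 76.1 and 37.4 ± 6.16 CPM (log2 3.78). Fbp2 was lower in hearts (20.9 ± 4.12 CPM against 188 ± 51.8 CPM in jejuna, log2 -3.17). Fbp1, the liver form, was listed at 0 in 7 of 21 hearts, with 6 counts at most, and stood at 18.9 ± 6.05 CPM in jejuna. Pygm, the muscle glycogen phosphorylase, was at 891 ± 226 CPM in hearts and 5.57 ± 2.1 CPM in jejuna (log2 7.32), and Gys1 at 116 ± 26.9 and 7.93 ± 1.16 CPM (log2 3.87). Pygb, the brain form, took 75.0% ± 3.73 of the phosphorylase level in jejuna. Its own level was nevertheless higher in hearts, at 778 ± 174 CPM against 49.0 ± 8.16 CPM in jejuna. Per kilobase, hearts held Pygm at 310 ± 78.7 CPM and Pygb at 199 ± 44.4 CPM.

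Other genes of sugar metabolism were taken from lists of 102 genes, and none was called in any treatment comparison. For naproxen plus tryptophan against control in the heart, 88 were tested and 13 had an unadjusted p below 0.05, against 17.2% of all genes. The lowest adjusted p was that of Irs2, an adaptor of the insulin receptor (log2 1.20, adjusted p = 0.0836), and in the other lists those of the gluconeogenic Pck2 (log2 -0.23, adjusted p = 0.113), the aldose epimerase Galm (log2 0.14, adjusted p = 0.135), the glycogen targeting subunit Ppp1r3d (log2 -0.29, adjusted p = 0.151), the mitochondrial pyruvate carrier subunit Mpc2 (log2 0.40, adjusted p = 0.172), the pentose phosphate enzyme Pgls (log2 0.18, adjusted p = 0.174) and the sugar carrier Slc2a10 (log2 -0.27, adjusted p = 0.516). In the jejunum, naproxen against control gave 12 of 95 genes at an unadjusted p below 0.05, against 15.8% of all genes, among them the pyruvate carrier subunit Mpc1 (log2 -0.38, adjusted p = 0.193) and G6pdx, the first enzyme of the pentose phosphate pathway (log2 -0.29, adjusted p = 0.219). Naproxen against celecoxib gave 15 of 95, against 18.4% of all genes, and the pentose phosphate enzyme Tkt had the lowest adjusted p of its list (log2 -0.50, adjusted p = 0.100).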

How the data were processed

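RNA was measured in 59 hearts and 38 jejuna in 14 groups. Per the submitters' processing notes, the authors used Salmon 1.9.0, R 4.2.2 and the GRCm38 build, and deposited 1 table of estimated counts by gene. The step from transcripts to genes is not stated there. Of the values, 24.4% were not whole, and all were rounded here. All columns of the table were used.

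Each experiment was fitted with all of its groups in edgeR 4.0.16 (R 4.3.3, limma 3.58.1): filterByExpr at a minimum count of 10, TMM scaling, robust quasi-likelihood F tests, and Benjamini-Hochberg adjustment over all genes tested, with a call at an adjusted p of 0.05. Blocks were the dissection batch (experiments 3 and 4) and the stratum (pooled naproxen). There were 16 comparisons. The edgeR step was also run on simulated counts with known folds, drawn from its own fitted spread, and the outcome is not reported here. Alternatives were DESeq2 1.42.0, its size factors, no filter, no blocks and single libraries left out. CPM are computed here from TMM-scaled library sizes and given as mean and SD over animals. Isozyme shares use CPM per kilobase of the longest coding transcript (GENCODE, GRCm38). Promoters are from RefSeq (GRCm38.p6). Tables and figures were made with Python 3.11.15, pandas 2.3.3, numpy 2.4.6 and matplotlib 3.10.9.

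In each comparison every called member is named, or, with fewer than 3 calls, the 3 members with the lowest p. Of the other lists, the gene with the lowest p is named, and some results are not reported here. The members and lists were chosen with earlier results of these data known. The labels number animals anew in every treatment and experiment, so libraries were taken as separate, unpaired animals. Depth limits precision for rare transcripts, and counts of Pgk1 and Pgam1 are uncertain, since copies of both genes are also in the table and how reads were divided between them was not tested.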

Additional observations from a re-analysis of the deposited data

Results flagged for a closer look

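Among 97 pairs of a member and a group of 4 to 10 animals, 8 held 1 library far from the others (gap to the nearest other library over the whole range, Dixon's 95% limit). Chance alone flags about 1 in 20 such groups. In jejuna, Hk2 reached 91.7 CPM in 1 animal given naproxen plus tryptophan (next 48.3 CPM) and 67.8 CPM in 1 given naproxen (next 43.5 CPM). Aldoc reached 8.85 CPM in 1 control jejunum (next 5.23 CPM), and Pfkfb1 3.11 CPM in 1 tryptophan jejunum (next 2.04 CPM). In hearts, Slc2a3 reached 10.4 CPM in 1 naproxen female of experiment 1 (next 3.46 CPM) and 3.90 CPM in 1 heart given naproxen plus tryptophan (next 2.56 CPM). Slc16a3 reached 0.946 CPM in 1 control female of experiment 1 (next 0.384 CPM). Pfkfb2 was lowest in 1 naproxen heart of experiment 2, at 60.9 CPM (next 100.1 CPM).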

How the results depend on the processing

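Settings without the 3 hearts of highest mitochondrial share, without the jejuna of low enterocyte markers, and with total counts in the tissue comparison were chosen after seeing the data. The numbers of members called moved as follows. DESeq2 called 1 for naproxen in males, 5 for naproxen plus tryptophan against control and 2 against naproxen in the heart, 1 for naproxen against celecoxib and 1 for pooled naproxen. With no filter on low counts, 1 was called for tryptophan in the heart, and in the jejunum 2 for naproxen, 3 for the combination and 3 for naproxen against celecoxib. Pooled naproxen without experiment 2 called 1. With 1 library left out, the counts ranged from 2 to 5 for the combination against control (5 without naproxen replicate 6), 0 to 2 for the combination against naproxen and 0 to 2 for naproxen against celecoxib. The cause of these changes was not tested. With union-of-exon lengths the shares were 70.2% for Hk2, 94.2% for Pfkm, 95.7% for Eno3 and 83.7% for Ldhb in hearts, and 67.1% for Pfkp, 90.5% for Eno1, 71.8% for Pkm, 95.9% for Ldha, 77.7% for Slc16a1 and 79.1% for Pygb in jejuna. Between tissues, Pgk1 turned to log2 -0.26 under total counts and Slc2a1 to -0.30 with the hearts of experiment 1. The replicate block left 2 members called in edgeR for the combination against control (Pgam2 adjusted p = 0.0781). Same-numbered samples correlated from -0.55 to 0.77, a spread that cannot decide whether the numbers pair animals. Apart from single omissions, the values of named genes kept direction and side of the threshold in 500 cases, crossed into a call in 13, lost one in 13 and turned in 2. At these depths, members near 0 counts could not be tested.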

Other observations

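Copies of 2 members were also read. Pgk1-rs7, a retrotransposed copy of Pgk1, was at 13.7 to 52.2 CPM in hearts of experiment 1, 36.9 to 64.6 CPM in experiment 2 and 0 to 45.5 CPM in experiment 3, where 4 of 16 hearts were listed at 0. It was listed at 0 in all 38 jejuna. Pgam1-ps2 was at 0 to 5.36 CPM in experiment 2 and listed at 0 in all other libraries.

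The spread within groups, over members with a group mean of at least 1 CPM, was smallest in experiment 3. Their median coefficient of variation was 8.49% in tryptophan hearts and 9.13% in control hearts of experiment 3, and 11.2% with naproxen plus tryptophan, 13.2% with naproxen and 15.3% in controls of experiment 2. In experiment 1 it was 11.5% in naproxen females, 22.5% in control females, 22.96% in naproxen males and 13.4% in control males.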
